A study of Mus musculus with 20 samples.

Results

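The GIMAP (GTPases of immunity-associated proteins) genes of the mouse were followed through blood stem and progenitor cells of the bone marrow. Rows of the deposited gene table were kept when their Ensembl identifier maps to Gimap1, Gimap3, Gimap4, Gimap5, Gimap6, Gimap7, Gimap8 or Gimap9, which gave 8 of 45706 gene rows. RNA had been sequenced from long-term haematopoietic stem cells (LT-HSC) and from type 2 and type 3 multipotent progenitors (MPP2 and MPP3), sorted by flow cytometry from C57BL/6 mice at 8 weeks of age. The 20 libraries fall into 6 groups by population and Hopx genotype. Hopx wild type (WT) has 4 LT-HSC, 3 MPP2 and 4 MPP3 libraries, and Hopx knockout (KO) has 3 of each. Hopx encodes a small atypical homeodomain protein without DNA-binding activity of its own. The labels name neither the animals nor the design of the Hopx allele nor the surface markers of the sort, so p-values measure the spread between libraries, which may be partly technical.

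GIMAP proteins carry a GTP-binding domain of the AIG1 type, and most are anchored to membranes of the endoplasmic reticulum, Golgi, lysosome or mitochondria. They are best known from lymphocytes, where several members bear on the survival of T and B cells. Gimap5 has also been tied to stem cells: mice that lack it lose lymphocytes early and have a disturbed stem cell compartment. MPP2 are progenitors biased towards megakaryocytes and red cells, and MPP3 are biased towards granulocytes and monocytes.

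Some libraries stood apart before any GIMAP value was considered. Hopx itself was at 0 in all 9 KO libraries, at 11.01 to 61.2 normalized counts in 10 WT libraries, and at 0 in the library labelled WT LT-HSC replicate 4. A normalized count is the number of reads of a gene divided by a size factor for its library, and libraries held 11163345 to 15189909 reads in genes. WT MPP2 replicate 3 went against its label in several transcripts: Flt3 stood at 4080 against 94.4 and 138 in the other WT MPP2 libraries, Gata1 at 877 against 3708 and 4545, and the immunoglobulin gene Igkc at 267435 against 3705 in WT MPP3 replicate 3 and at most 15.6 in the other 18 libraries. Against MPP3, Slamf1 and Gp9 went with the label, at 512 and 564 in WT MPP2 replicate 3. They stood at 407 to 606 and 779 to 1374 in the other WT MPP2 libraries and at most 32.5 and 198 in MPP3. Of the 12 B cell markers, the summed level was 269164 in WT MPP2 replicate 3, 7117 in WT MPP3 replicate 3, 5893 in KO LT-HSC replicate 1 and 412 to 1647 in the other 17. WT MPP3 replicates 2 and 3 were low in MPP3 markers, which summed to 48663 and 50204 normalized counts against 130741 to 167324 in the other 5 MPP3 libraries, and the neutrophil elastase gene Elane stood at 2.51 and 51.7 there against at least 6702. Of the T cell receptor complex genes, Cd3g had no read in any library, Cd3e reached 2.18 and Cd3d 17.8, while Trbc1 reached 248 and Trbc2 84.2 in WT MPP3 replicate 2. A set of 3 WT libraries numbered 52 to 54 in the labels (LT-HSC replicate 3, MPP2 replicate 3 and MPP3 replicate 2) were the only female WT libraries by Xist and Y-linked transcripts, while 6 of the 9 KO libraries were female. The results that rest on these libraries are given with and without them.

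The 8 genes lie in 1 block of chromosome 6 that spans 123618 bases in GRCm38. In order they are Gimap8 (ENSMUSG00000064262, chr6:48647234-48660875, plus strand), Gimap9 (ENSMUSG00000051124, chr6:48676129-48679114, plus), Gimap4 (ENSMUSG00000054435, chr6:48684549-48692060, plus), Gimap6 (ENSMUSG00000047867, chr6:48701582-48708225, minus), Gimap7 (ENSMUSG00000043931, chr6:48718621-48724636, plus), Gimap1 (ENSMUSG00000090019, chr6:48739054-48743795, plus), Gimap5 (ENSMUSG00000043505, chr6:48746197-48754210, plus) and Gimap3 (ENSMUSG00000039264, chr6:48764464-48770851, minus). All 8 are annotated as protein-coding. Gimap1 shares 36.0% of its exon bases with the antisense gene Gimap1os and the readthrough gene Gm28053, and Gimap5 and Gimap7 share 3.7% and 3.5% with Gm28053. Of the windows of 50 bases along the longest coding transcript, 9.98% of those of Gimap5 also occur in Gimap3 and 9.83% of those of Gimap3 also occur in other genes, Gimap5 among them. Their reads could therefore be split or lost, and the low values of Gimap3 and those of Gimap1 carry that uncertainty, since no source used here says whether strand entered the counting.

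The 250 bases before the RefSeq transcription start are shown for 4 members whose levels differed in pattern: Gimap6 and Gimap1, which were the most alike of all pairs over the libraries, Gimap5, which separated LT-HSC from both progenitors, and Gimap7, which was highest in MPP3. They are written 5′ to 3′ on the strand of the gene, from RefSeq in GRCm38.p6, at chr6:48708245-48708494 (minus strand), chr6:48738797-48739046 (plus), chr6:48745947-48746196 (plus) and chr6:48718371-48718620 (plus). Capitals mark matches, on either strand, to short core motifs of blood transcription factors: TGTGGT (reverse ACCACA) for RUNX and AGGAAG (reverse CTTCCT) for ETS factors.
Gimap6: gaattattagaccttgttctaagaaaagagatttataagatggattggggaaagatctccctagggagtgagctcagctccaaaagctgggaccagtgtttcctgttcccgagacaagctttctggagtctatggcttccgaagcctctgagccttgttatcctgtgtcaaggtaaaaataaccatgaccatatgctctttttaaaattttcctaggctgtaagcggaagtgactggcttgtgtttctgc
Gimap1: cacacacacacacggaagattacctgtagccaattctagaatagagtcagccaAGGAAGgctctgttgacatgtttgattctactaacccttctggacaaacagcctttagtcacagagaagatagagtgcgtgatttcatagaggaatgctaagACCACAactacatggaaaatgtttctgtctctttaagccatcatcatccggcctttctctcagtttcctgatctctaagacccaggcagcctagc
Gimap5: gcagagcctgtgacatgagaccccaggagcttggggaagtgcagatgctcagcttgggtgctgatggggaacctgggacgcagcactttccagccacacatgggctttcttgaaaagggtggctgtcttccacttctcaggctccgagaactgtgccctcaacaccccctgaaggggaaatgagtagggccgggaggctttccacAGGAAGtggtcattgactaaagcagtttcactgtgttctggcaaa
Gimap7: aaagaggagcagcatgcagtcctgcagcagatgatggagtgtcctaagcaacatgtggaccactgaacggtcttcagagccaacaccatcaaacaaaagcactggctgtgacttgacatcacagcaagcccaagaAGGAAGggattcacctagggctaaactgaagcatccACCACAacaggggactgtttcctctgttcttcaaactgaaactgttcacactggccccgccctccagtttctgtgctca
The RUNX letters occurred in 3 of the 8 GIMAP windows (Gimap4, Gimap7 and Gimap1) and in 14.05% of 32851 windows of the same length in the RefSeq table. The ETS letters occurred in 6 of 8 (all but Gimap6 and Gimap8) and in 29.48% of all windows. Neither the GATA core AGATAA (reverse TTATCT, in 9.99% of all windows) nor the RBPJ core TGGGAA (reverse TTCCCA, in 21.59%) occurred in any of the 8. No match to one motif shares a base with a match to another in the 8 windows. Only the exact letters given were searched, on both strands. Close variants, such as cggaag in the Gimap6 window and agatag in the Gimap1 window, were not counted. The matches are of letters, not measured binding sites.

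Levels differed widely between members. Per kb of merged exon in WT LT-HSC (mean ± SD, n = 4), Gimap6 led with 1756 ± 445 normalized counts per kb, followed by Gimap1 with 964 ± 192, Gimap9 with 667 ± 32.6, Gimap5 with 256 ± 44.6 and Gimap8 with 129 ± 57.5. Gimap4 (67.1 ± 60.9), Gimap3 (16.5 ± 14.4) and Gimap7 (15.3 ± 4.91) closed the order. The ranges of mean ± SD overlapped between Gimap8 and Gimap4, between Gimap4 and Gimap3 and between Gimap3 and Gimap7, and not between the other neighbours. With the longest coding transcript as the length, Gimap1 came before Gimap6 (1984 against 1931 per kb). In WT MPP3 the order was Gimap6, Gimap9, Gimap1, Gimap7, Gimap5, Gimap8, Gimap4 and Gimap3, and Gimap1 and Gimap7 (597 ± 257 against 123 ± 76.8) were the only neighbours whose ranges were apart. In WT MPP2 the order was Gimap6, Gimap9, Gimap1, Gimap5, Gimap8, Gimap7, Gimap4 and Gimap3, with a gap only between Gimap1 (376 ± 224) and Gimap5 (76.5 ± 30.5). Gimap6, Gimap1, Gimap9 and Gimap5 had a mean of at least 100 normalized counts in all 6 groups. Summed over the 8 members, normalized counts were 11938 ± 2509 (SD, n = 4) in WT LT-HSC and 9291 ± 1891 (n = 3) in KO LT-HSC, 5083 ± 4016 (n = 3) and 2552 ± 1071 (n = 3) in WT and KO MPP2, and 8751 ± 3871 (n = 4) and 6511 ± 1382 (n = 3) in WT and KO MPP3. Gimap6 made up 13.3 to 56.8% of the sum in a library, with its lowest share in KO MPP2.

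**Figure D1:**
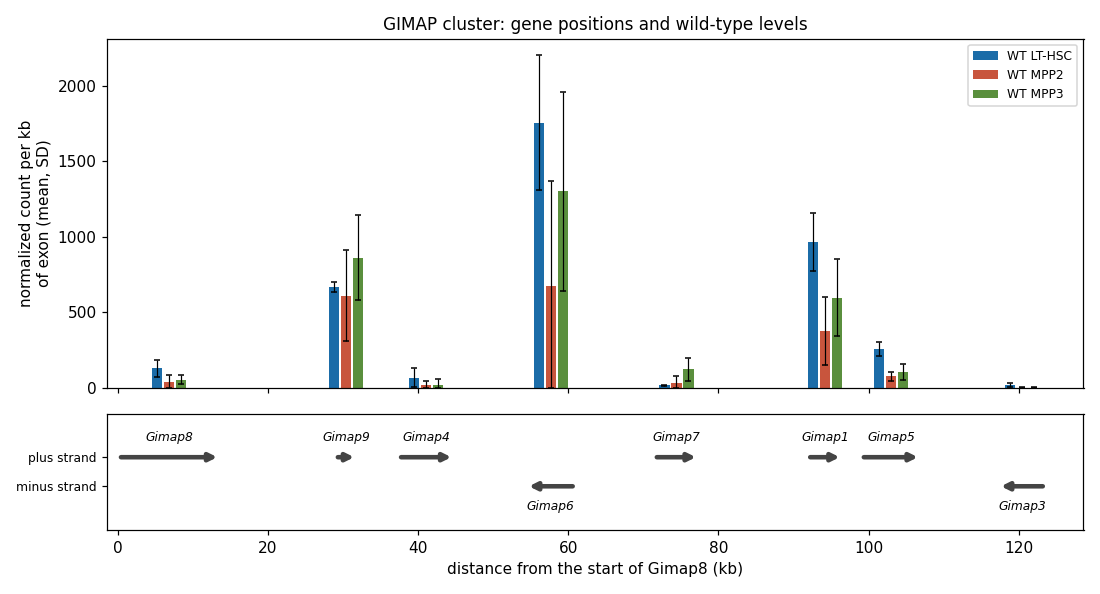
Mean normalized count per kb of exon (bars, whiskers SD) of each GIMAP gene in WT LT-HSC (n = 4), MPP2 (n = 3) and MPP3 (n = 4), placed by distance in kb from the start of Gimap8, with arrows for gene extent and strand below. Gimap6, Gimap1 and Gimap9 are the tallest, and Gimap3 at the far end is close to 0 outside LT-HSC.

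Most GIMAP transcripts were less abundant in MPP2 than in LT-HSC. Averaged over genotypes, 5 of 8 members were lower in MPP2 than in LT-HSC and none was higher, where 5.08% of the 17160 genes tested were lower and 2.24% higher (limma on log2 of normalized count + 1, Benjamini-Hochberg adjusted p under 0.05 over all genes). The 5 were Gimap5, Gimap1, Gimap8, Gimap6 and Gimap3. The median log2 difference of the 8 members was -2.20, beside -0.114 over all genes tested. All 8 passed the filter on low values, Gimap3 by its LT-HSC levels alone, so that its direction was bound to be this one. In sorted bulk samples, fewer cells that express a gene and less RNA per cell cannot be told apart.

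Gimap5, a lysosomal member needed for lymphocyte survival, separated LT-HSC from both progenitors without overlap. In LT-HSC it stood at 831, 1166, 1249 and 1003 normalized counts in WT and at 1119, 927 and 861 in KO. In MPP2 it stood at 337, 182 and 432 in WT and at 292, 167 and 356 in KO. In MPP3 the values were 277, 704, 504 and 213 in WT and 286, 415 and 251 in KO. Every LT-HSC library was above every MPP2 and every MPP3 library. The share of all genes that separate in this way is not given here. The log2 difference was -1.85 (SE 0.28, adjusted p = 0.00131) for MPP2 against LT-HSC and -1.55 (SE 0.27, adjusted p = 0.0013) for MPP3 against LT-HSC, by limma. Between MPP2 and MPP3 it was -0.30 (95% interval -0.90 to 0.29, adjusted p = 0.613), and those ranges overlapped.

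Gimap6, which binds the autophagy protein Gabarapl2, was the most abundant transcript of the family by count. WT LT-HSC held 5565, 5500, 8448 and 5044 normalized counts, and KO LT-HSC 4561, 3190 and 5192. WT MPP2 held 972, 925 and 5155, and KO MPP2 1069, 1286 and 182. WT MPP3 held 3631, 7907, 4014 and 2657, and KO MPP3 3401, 4446 and 2536. WT MPP2 replicate 3 alone reached LT-HSC levels, and the other 5 MPP2 libraries lay below every other library of the study. Gimap6 fell by 2.30 in MPP2 against LT-HSC (log2, SE 0.45, adjusted p = 0.00582, limma), while MPP3 against LT-HSC gave -0.42 (95% interval -1.33 to 0.48, adjusted p = 0.717).

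Gimap1, an endoplasmic reticulum and Golgi member needed for mature lymphocytes, had 2657, 2483, 3809 and 2901 normalized counts in WT LT-HSC and 2898, 1766 and 2626 in KO LT-HSC. MPP2 values were 913, 622 and 1935 in WT and 1013, 1015 and 462 in KO. MPP3 values were 1351, 2421, 2588 and 983 in WT and 1691, 1644 and 1521 in KO. MPP2 libraries were below all LT-HSC libraries, except that WT MPP2 replicate 3 was above KO LT-HSC replicate 2. The log2 difference between MPP2 and LT-HSC was -1.55 (SE 0.28, adjusted p = 0.00348, limma), and that of MPP3 was -0.67 (SE 0.27, adjusted p = 0.18).

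Gimap8, a large member with several GTPase domains, stood at 253, 337, 671 and 646 in WT LT-HSC and at 338, 217 and 418 normalized counts in KO LT-HSC. It stood at 92.7, 29.0 and 327 in WT MPP2 and at 1.91, 44.4 and 0.98 in KO MPP2. MPP3 gave 116, 293, 289 and 90.2 in WT and 168, 131 and 20.9 in KO. Here too WT MPP2 replicate 3 was the single MPP2 library within the LT-HSC range. The difference between MPP2 and LT-HSC was -3.90 on the log2 scale (SE 0.73, adjusted p = 0.00436, limma), and MPP3 against LT-HSC gave -1.67 (adjusted p = 0.207).

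Gimap3, the close relative of Gimap5 at the far end of the block, was most abundant in LT-HSC. WT LT-HSC had 25.6, 43.7, 93.4 and 7.14 normalized counts and KO LT-HSC 1.09, 9.66 and 13.6. The 3 WT MPP2 libraries had 0, 0 and 4.73, and the 4 WT MPP3 libraries 6.05, 1.26, 0 and 0. No read fell on it in KO MPP2 among 43378536 reads in genes or in KO MPP3 among 41427801, which allows up to 0.0692 and 0.0724 CPM (3 reads over the group, counting error only). The KO LT-HSC mean of 8.12 normalized counts was 8.63 and 8.40 times those floors, which are 0.941 and 0.967 in normalized counts. KO LT-HSC replicate 1, with 1 read, was close to them. The spread between LT-HSC libraries does not enter these ratios, so they are no lower bounds. The fitted log2 differences depend on the pseudocount of 1. Against LT-HSC they were -3.45 (adjusted p = 0.00937) for MPP2 and -3.37 (adjusted p = 0.00455) for MPP3, by limma. Gimap3 passed the filter on low values by its LT-HSC levels alone, so both directions were fixed beforehand and are no support. For every 100 Gimap5 normalized counts there were 0.71 to 7.48 of Gimap3 in WT LT-HSC and 0.097 to 1.58 in KO LT-HSC.

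The remaining 3 members did not pass in MPP2 against LT-HSC. Gimap4, a lymphocyte member linked to T cell death, ranged from 0.92 to 271 normalized counts in WT LT-HSC, 79.1 to 254 in KO LT-HSC and 0 to 87.4 over the 6 MPP2 libraries, with a log2 difference of -4.21 (SE 1.33, adjusted p = 0.0627, limma). Gimap9 gave -0.59 (SE 0.24, adjusted p = 0.148) and Gimap7 -2.10 (SE 1.17, adjusted p = 0.3). For Gimap7 the plain means went the other way, at 36.5 normalized counts in MPP2 and 33.8 in LT-HSC. WT MPP2 replicate 3 alone had 201.

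Without the 3 libraries that carried B cell transcripts, 6 of 8 members were lower in MPP2 than in LT-HSC, beside 5.72% of all genes: the 5 above and Gimap7 (-4.11, adjusted p = 0.0113, limma). Leaving out WT MPP2 replicate 3 gave 7 (6.24% of all genes lower), leaving out it together with the library labelled WT LT-HSC replicate 4 gave 5 (4.78%), leaving out WT MPP3 replicates 2 and 3 gave 5 (5.33%), and leaving out the libraries numbered 52 to 54 gave 6 (4.94%), with Gimap4 added (-4.53, adjusted p = 0.0444). Of the 32 alternative fits, all kept the calls of Gimap5, Gimap1, Gimap6 and Gimap8 in MPP2 against LT-HSC, and 31 kept that of Gimap3, which edgeR on the reads put at an adjusted p of 0.0548. The 5 comparisons that can be made within a single number range and genotype all put MPP2 below LT-HSC for Gimap1, Gimap3, Gimap4, Gimap5, Gimap6 and Gimap8. For Gimap3, whose direction was bound by the filter on low values, neither these comparisons nor the alternative fits add support. Within WT alone 1 member passed (Gimap5, -1.81, adjusted p = 0.0329, beside 0.554% of all genes lower), and within KO 3 passed (Gimap8 -5.62, Gimap5 -1.89 and Gimap6 -2.74, adjusted p = 0.0159, 0.0339 and 0.0477, beside 1.08%). These calls within a genotype were less firm. That of Gimap5 in WT was lost without WT LT-HSC replicate 2, 3 or 4 or WT MPP2 replicate 1 or 2 (adjusted p up to 0.161 over all fits), that of Gimap5 in KO without any 1 of the KO LT-HSC libraries or KO MPP2 replicate 1 or 2 (up to 0.125), and that of Gimap8 in KO without KO LT-HSC replicate 1 or 3 or KO MPP2 replicate 1 or 3 (up to 0.135). That of Gimap6 in KO held in 13 of the 32 alternative fits (up to 0.158).

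**Figure D2:**
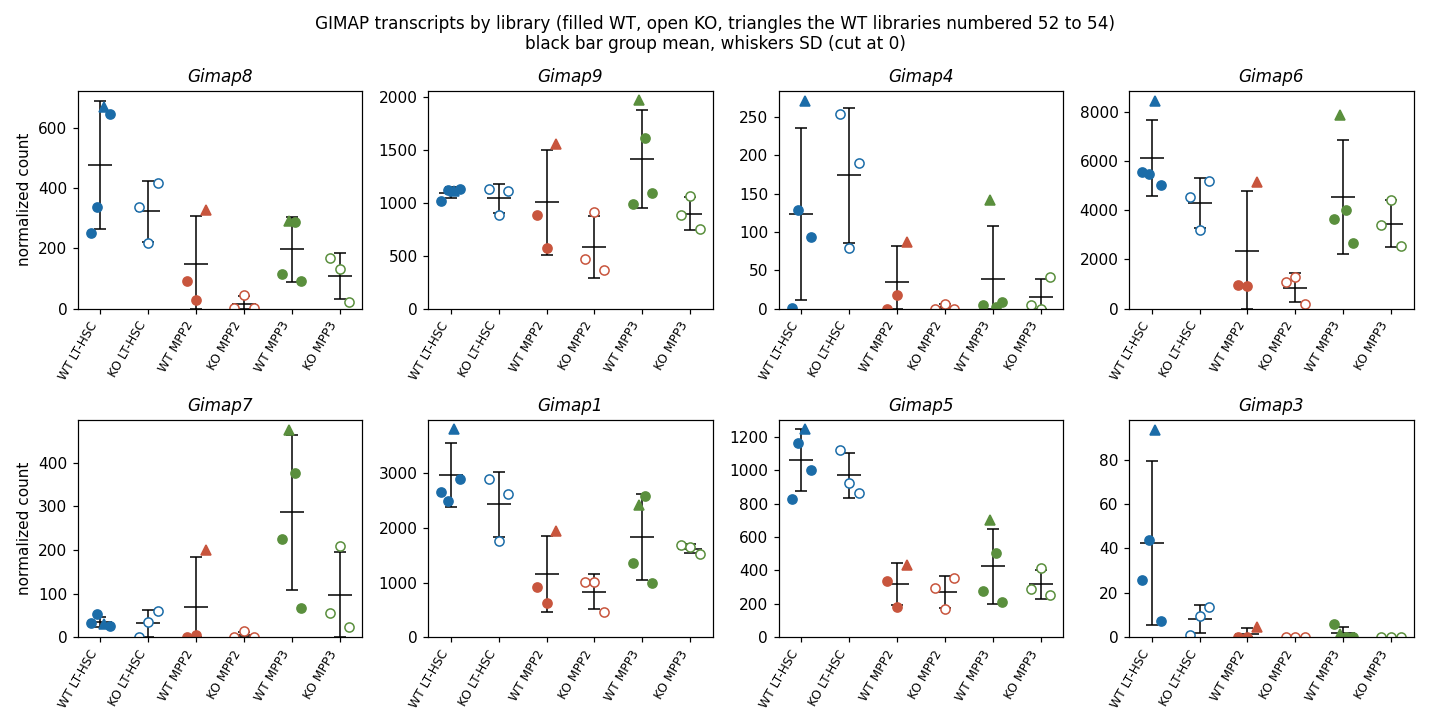
Normalized count of each GIMAP gene in every library (filled points WT, open points KO, triangles the WT libraries numbered 52 to 54), with group mean (bar) and SD (whiskers, cut at 0) over 3 or 4 libraries. For Gimap5 all LT-HSC points lie above all MPP2 and MPP3 points, and the triangle of MPP2 stands above the other MPP2 points in all 8 panels.

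Fewer members passed between MPP3 and LT-HSC. There, 2 of 8 members were lower in MPP3, Gimap5 and Gimap3, and none was higher, where 4.18% of all genes were lower and 3.22% higher (limma, averaged over genotypes). The direction of Gimap3 was again fixed by the filter. The median log2 difference of the members was -1.11, with the median over all genes at 0. In WT alone the same 2 members passed (Gimap3 -3.95, adjusted p = 0.0177, and Gimap5 -1.46, adjusted p = 0.0257, beside 2.47% of genes lower), and in KO alone none did (0.997% of genes lower, 3 members at an unadjusted p under 0.05 beside 10.6% of all genes, smallest adjusted p = 0.052). Both averaged calls held in all 32 alternative fits, and without WT MPP3 replicates 2 and 3 Gimap1 was added (-0.95, adjusted p = 0.0416, with 3.92% of genes lower). Within WT, that of Gimap5 was lost without LT-HSC replicate 2, 3 or 4 or MPP3 replicate 1 or 4 (adjusted p up to 0.0939 over all fits), and that of Gimap3 without LT-HSC replicate 2 or 3 or MPP3 replicate 3 or 4, or without MPP3 replicates 2 and 3 together (up to 0.265).

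Gimap7 had its highest group mean in MPP3 in both genotypes. It was low in LT-HSC, at 32.1, 52.2, 30.8 and 26.8 normalized counts in WT and at 0, 35.1 and 59.9 in KO. WT MPP3 held 226, 475, 377 and 66.7, and KO MPP3 54.6, 210 and 23.6. WT MPP2 held 0, 4.0 and 201, and KO MPP2 0, 14.2 and 0. Thus all 4 WT MPP3 libraries were above all WT LT-HSC libraries, the KO ranges overlapped, and 5 of 6 MPP2 libraries were at or below 14.2. MPP3 against LT-HSC was +2.52 on the log2 scale (SE 1.13, 95% interval 0.14 to 4.91), which did not pass (adjusted p = 0.243, limma). It was above 0 in all 5 comparisons within a number range and genotype, from 1.79 to 3.90. Without the 3 libraries with B cell transcripts it was 1.48 (adjusted p = 0.414). The 2 highest Gimap7 values were those of WT MPP3 replicates 2 and 3, the libraries low in MPP3 markers. Without both, MPP3 against LT-HSC was 2.08 (adjusted p = 0.46).

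Of the 8 members, Gimap9 had the smallest difference between LT-HSC and MPP3. It stood at 1017, 1119, 1115 and 1133 normalized counts in WT LT-HSC and at 1125, 886 and 1109 in KO LT-HSC. MPP3 gave 984, 1971, 1609 and 1091 in WT and 884, 1059 and 747 in KO, and MPP2 gave 882, 576 and 1551 in WT and 465, 916 and 366 in KO. The log2 difference of MPP3 against LT-HSC was 0.05 (95% interval -0.44 to 0.53, adjusted p = 0.961, limma). It turned to -0.04 without the libraries numbered 52 to 54 and to -0.15 without WT MPP3 replicates 2 and 3.

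Between the progenitors, Gimap6 and Gimap7 were lower in MPP2 than in MPP3 (2 of 8, beside 4.64% of all genes lower and 2.24% higher, limma). The log2 differences were -1.87 for Gimap6 (SE 0.45, adjusted p = 0.0173) and -4.63 for Gimap7 (SE 1.17, adjusted p = 0.0243). The other members with their adjusted p were Gimap8 at -2.23 (0.0779), Gimap1 at -0.88 (0.0679), Gimap9 at -0.64 (0.132), Gimap4 at -0.82 (0.797), Gimap5 at -0.30 (0.613) and Gimap3 at -0.08 (0.967). WT MPP2 replicate 3 bore heavily on this comparison: without it 5 members passed (6.21% of all genes lower), with Gimap1 at -1.11 (adjusted p = 0.0122), Gimap8 at -2.67 (0.0313) and Gimap9 at -0.82 (0.0306) added. Leaving out WT MPP2 replicate 1 gave no call (Gimap6 0.0549, Gimap7 0.0739), as did leaving out WT MPP2 replicate 2 (Gimap6 0.0578, Gimap7 0.067) and edgeR on the reads (Gimap6 0.0626, Gimap7 0.161). Leaving out WT MPP3 replicates 2 and 3 together also ended both calls (Gimap6 -1.66, adjusted p = 0.0713, Gimap7 -4.18, adjusted p = 0.0973, with 2.55% of genes lower). Without KO MPP2 replicate 1 or without KO MPP3 replicate 2 the call of Gimap7 was lost (adjusted p = 0.053 and 0.0696), and without KO MPP2 replicate 2 there were 4 calls (6.03% of genes lower). No member passed within WT alone (0.175% of genes lower, 2 members at an unadjusted p under 0.05 beside 9.57% of all genes) or within KO alone (2.12% of genes lower, 4 members at an unadjusted p under 0.05 beside 17.5%).

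**Figure D3:**
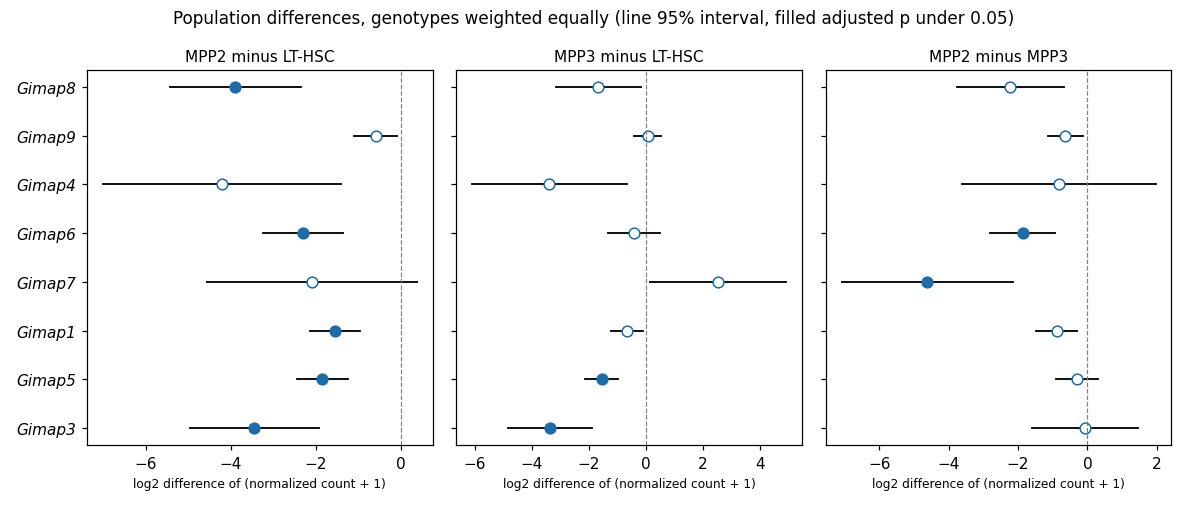
Log2 difference of normalized count + 1 for each GIMAP gene between populations, genotypes weighted equally (points; lines 95% intervals; filled where the limma adjusted p is under 0.05), for 7 LT-HSC, 6 MPP2 and 7 MPP3 libraries. Against LT-HSC, 5 points are filled for MPP2 and 2 for MPP3, and Gimap7 alone lies well to the right of 0 in MPP3.

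The levels of other marker lists are given beside these values, and their part in the GIMAP differences was not tested. LT-HSC markers summed to 16348 to 26219 normalized counts in LT-HSC and 3874 to 12718 in MPP2 and MPP3. Averaged over genotypes, 10 of 12 were lower in MPP2 and 8 of 12 in MPP3 than in LT-HSC (limma). Of all genes, 5.08% and 4.18% were. Within WT these counts were 4 and 8, beside 0.554% and 2.47% of all genes. Early lymphoid genes summed to 22409 to 48961 in MPP3, 1691 to 4564 in LT-HSC, 1770 to 5182 in 5 MPP2 libraries and 24262 in WT MPP2 replicate 3. Endothelial markers, of which Lyve1 and Sox17 had no read and Cdh5 had at most 10.6, summed to 1314 to 2112 in LT-HSC and to 416 to 1252 in the progenitors. The 16 T cell markers summed to 1191 to 1846 in LT-HSC, 1045 to 1955 in MPP2 and 963 to 2802 in MPP3. Most of each sum was Lat and Lck, and 8 to 13 of the 16 had a read, depending on the group. In MPP3 against LT-HSC, Lat was lower (-1.29, adjusted p = 0.00109) and Lck higher (1.65, adjusted p = 0.0101, limma). MPP3 markers summed to 3427 to 9386 in LT-HSC, 3915 to 91859 in MPP2 (highest in WT MPP2 replicate 3) and 48663 to 167324 in MPP3. MPP2 markers summed to 10514 to 41192, 21429 to 81773 and 23142 to 29340 in the same order. Both lists hold Cd34 and Cd48, which stood at 15282 to 20986 and 4928 to 7860 in MPP3. Of the 9 MPP2 markers, 6 were lower and 2 higher in MPP3 than in LT-HSC (limma, averaged over genotypes). Of all genes, 4.18% were lower and 3.22% higher. NK cell markers summed to 1438 to 3309 in LT-HSC and to 3885 to 11054 in the progenitors. Nearly all of this was Nkg7, at 1401 to 3248 in LT-HSC and 3885 to 11022 in the progenitors. Nkg7 was higher in MPP2 than in LT-HSC (1.82, adjusted p = 0.000214, limma), while Klrb1c was lower (-4.33, adjusted p = 0.021). Monocyte and macrophage markers summed to 250 to 833 in LT-HSC, 478 to 1963 in MPP2 and 797 to 3081 in MPP3. Erythroid markers summed to 775 to 22481 in LT-HSC, 3641 to 73526 in MPP2 and 255 to 24717 in MPP3. Car1 made up most of the highest sum in each population, at 19947, 66130 and 21953. Mature neutrophil markers summed to 8458 to 26758 in 5 libraries (KO LT-HSC replicate 1, WT LT-HSC replicate 2, WT MPP2 replicate 2 and WT MPP3 replicates 2 and 3) and to 58.9 to 976 in the other 15. Of the 10 neutrophil markers none passed between genotypes, with a median KO minus WT log2 difference of -1.66 averaged over populations.

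Members varied together over the libraries to different degrees. Pearson's r of log2(normalized count + 1) over the 20 libraries, which share population, genotype and number range, had a median of 0.60 over the 28 pairs. It ran from 0.129 for Gimap7 with Gimap5 to 0.916 for Gimap6 with Gimap1, which are separated by Gimap7 on the chromosome. Gimap8 with Gimap6 gave 0.876 and Gimap8 with Gimap9 gave 0.859. Against summed marker lists, Gimap5 had r = 0.89 with the LT-HSC markers and also 0.89 with the endothelial markers. In LT-HSC the endothelial sum was mostly Tie1, Emcn and Robo4, while Lyve1 and Sox17 had no read. With the NK cell, erythroid and early lymphoid genes Gimap5 had -0.79, -0.69 and -0.31. The NK cell sum was nearly all Nkg7, and the highest erythroid sums were mostly Car1. Gimap7 had 0.64 with the early lymphoid genes, 0.49 with the MPP3 markers and -0.01 with the LT-HSC markers.

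**Figure D4:**
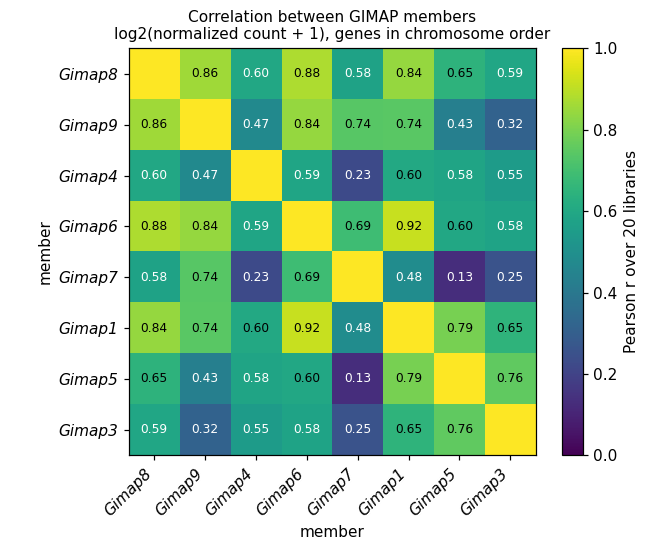
Pearson's r between GIMAP genes over the 20 libraries, on log2(normalized count + 1), with genes in chromosome order on both axes. The block of Gimap8, Gimap9, Gimap6 and Gimap1 holds the highest values, up to 0.92, and Gimap7 with Gimap5 the lowest, 0.13.

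Among 9338 other genes of sufficient level, those most like the mean of the 8 members over the 20 libraries were Gimap1os (r = 0.907), Ly6a (0.90), Chid1 (0.90), Procr (0.899) and Slc50a1 (0.886). Gimap1os is antisense to Gimap1 and shares sequence positions with it. Ly6a encodes the Sca-1 antigen, and Procr the endothelial protein C receptor, a surface marker of LT-HSC. Procr averaged 951 ± 272 normalized counts (SD, n = 4) in LT-HSC of WT, with 60.6 ± 105 (n = 3) for the MPP2 and 191 ± 91.3 (n = 4) for the MPP3 libraries. Ly6a averaged 2210 ± 1042, 1214 ± 1937 and 1657 ± 1278 in these 3 groups.

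The genes next to the block were followed as well. Of the 3 annotated protein-coding neighbours on each side, Tmem176b and Tmem176a were lower in MPP2 than in LT-HSC, by -0.79 (adjusted p = 0.014) and -0.99 (adjusted p = 0.0138) on the log2 scale, and Tmem176a was also lower in MPP2 than in MPP3 (-0.80, adjusted p = 0.0399, limma). Zfp775 and AI854703 on the other side did not pass in any comparison (MPP2 against LT-HSC 0.60, adjusted p = 0.698, and -0.61, adjusted p = 0.363). Aoc1, with at most 8.27 normalized counts, was too low to test, and Gm44965 was not analysed here. Gimap1os fell by 1.56 in MPP2 against LT-HSC (adjusted p = 0.0238, limma).

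Of 18 genes for partners and the survival and autophagy proteins around the family, 3 were lower in MPP2 than in LT-HSC (5.08% of all genes were) and none was higher. They were the ATG8-type autophagy genes Gabarapl1 (-1.10, adjusted p = 0.00149), Map1lc3a (-1.0, adjusted p = 0.0344) and Map1lc3b (-0.71, adjusted p = 0.0401), by limma. In MPP3, Gabarapl1 (-0.88, adjusted p = 0.00234), Map1lc3a (-1.22, adjusted p = 0.00638) and the survival gene Bcl2l1 (-1.63, adjusted p = 0.00371) were lower, beside 4.18% of all genes. Between MPP2 and MPP3 the survival gene Bcl2 was lower in MPP2 (-0.59, adjusted p = 0.0437), beside 4.64% of all genes. The median log2 difference of the list was -0.244 in MPP2 and -0.07 in MPP3 against LT-HSC, beside -0.114 and 0 over all genes. None of the 18 passed between genotypes.

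Loss of Hopx gave no GIMAP call. KO against WT, 0 of 8 members passed in LT-HSC (0.00583% of genes called in either direction), in MPP2 (0.0117%), in MPP3 (0.00583%) or averaged over the populations (0.0117%), by limma. At an unadjusted p under 0.05 there were 1, 3, 0 and 3 members, where 2.66%, 7.88%, 2.02% and 5.03% of all genes had one, and edgeR and DESeq2 on the reads also called none of the 8. The averaged log2 differences with 95% intervals were -1.85 (-3.09 to -0.61) for Gimap8, -1.75 (-3.74 to 0.24) for Gimap7, -1.34 (-2.57 to -0.10) for Gimap3 and -0.74 (-1.50 to 0.02) for Gimap6. They were -0.65 (-2.91 to 1.61) for Gimap4, -0.49 (-0.90 to -0.08) for Gimap9, -0.26 (-0.73 to 0.22) for Gimap1 and -0.21 (-0.69 to 0.28) for Gimap5, and the smallest adjusted p was 0.857.

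All 8 averaged estimates were below 0, with a median of -0.69 beside -0.047 over all genes. The members varied together over the libraries (median r 0.60), so their signs are not independent. The share of all genes below 0 is not given here. The WT libraries numbered 52 to 54 were the highest of their group in 20 of 24 member values, a share not given over all genes. By population these were 6 of 8 in LT-HSC, 8 of 8 in MPP2 and 6 of 8 in MPP3. Without the libraries numbered 52 to 54 the median was -0.31 and 6 of 8 were below 0, with Gimap4 at 0.50 and Gimap5 at 0.01. With the number range as a covariate the median was -0.38 and 7 were below 0, and without WT MPP3 replicates 2 and 3 it was -0.50 with 7 below 0. With sex as a covariate the median was -1.19, with DESeq2 -1.18 and with edgeR -1.16, each with all 8 below 0. Within single number ranges and populations, KO was below WT in 2 of 6 comparisons and above in 4 for Gimap1 and Gimap8, below in 3 and above in 3 for Gimap6, and below in 4 and above in 2 for Gimap5 and Gimap9. Gimap3 was below in 3 and above in none, with 3 comparisons at 0, Gimap4 below in 2 and above in 3, and Gimap7 below in 3 and above in 2, with 1 comparison at 0 for each of the latter. The libraries numbered 52 to 54 are all WT and all female, so number range, sex and genotype cannot be told apart there.

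Gimap8 was the only member with a genotype call when 1 library was left out, in MPP2 and in the average. With all libraries the KO minus WT log2 difference there was -3.93 (SE 1.06, adjusted p = 0.308, limma). Without KO MPP2 replicate 2, the KO library with 44.4 normalized counts, it was -5.34 (adjusted p = 0.00497) and the averaged difference was -2.32 (adjusted p = 0.0469). Without WT MPP2 replicate 3 it was -3.05 (adjusted p = 0.828). The test of whether the KO effect differs between populations passed for 0 of 8 members and 0% of all genes, with 0 members and 3.07% of genes at an unadjusted p under 0.05.

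**Figure D5:**
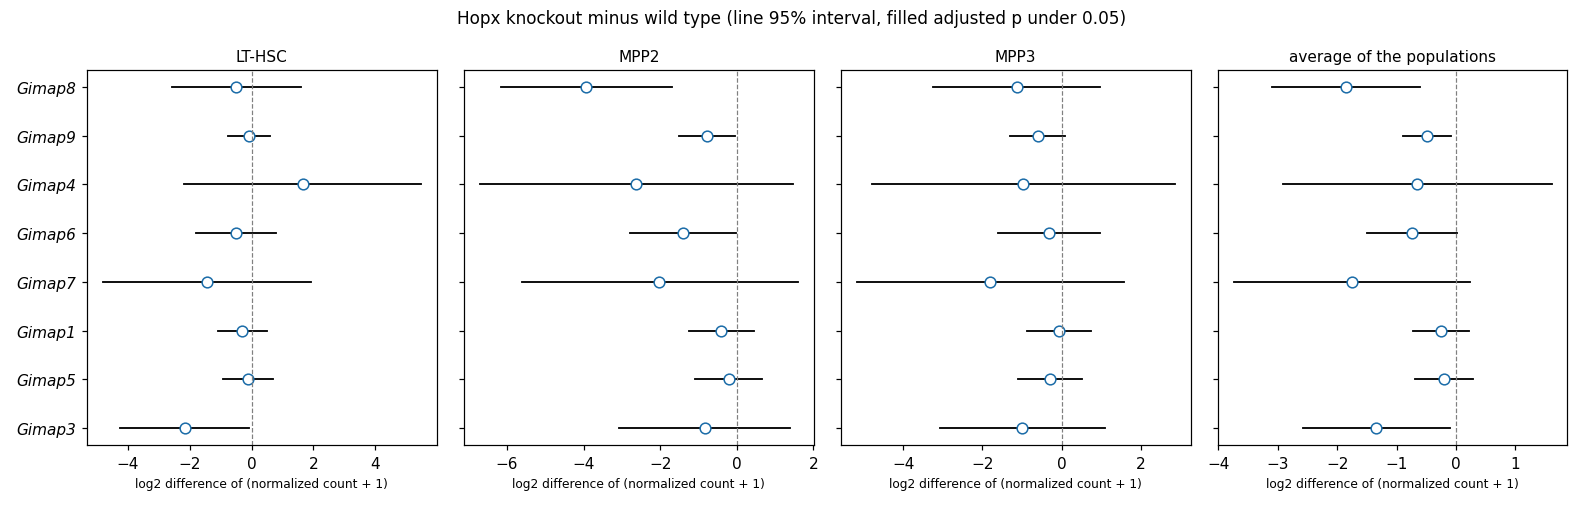
KO minus WT log2 difference of normalized count + 1 for each GIMAP gene in LT-HSC (3 KO, 4 WT libraries), MPP2 (3, 3), MPP3 (3, 4) and their average (points; lines 95% intervals; filled where the limma adjusted p is under 0.05). No point is filled, and all 8 averaged points lie left of 0.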

How the data were processed

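The authors deposited 1 table of library-scaled signal: by their steps, the values are read counts per gene divided by 1 size factor per library. TopHat2 2.1.1, HTSeq 0.11.2, DESeq and GRCm38 are named, without roles, per the submitters' processing notes. The annotation release, strand setting and any filter were not given in the sources used here. Dividing the deposited values by the value of 1 read gave whole reads (100.0% of values within 1e-06). The 5 HTSeq summary rows, 78.6 to 81.5% of all entries, were left out. Non-uniquely aligned reads alone were 52.6 to 57.8%, and reads shared between near-identical members may be among them.

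Differences were fitted with limma 3.58.1 (trend and robust) in R 4.3.3 on log2(value + 1), with 6 group means over all 20 libraries. The 17160 genes kept by edgeR's filterByExpr were tested in 14 comparisons, with Benjamini-Hochberg adjustment over all genes and a threshold of 0.05. Fold changes on this scale understate the change of low genes. The fit was tested on simulated data. The 32 alternatives were edgeR 4.0.16, DESeq2 1.42.0 and voom on recovered reads, a pseudocount of 16, CPM scaling, no filter, number range or sex as a covariate, and libraries left out. The median difference over all genes moved by at most 0.064 under CPM scaling. Replicates differed by more than sampling noise (chi-square per gene at least 30.8 over 24 pairs), so none was merged. Symbols came from GENCODE vM21 for 45143 of 45706 rows. The 8 members were all named; alike genes were the 5 of highest r with the members' mean, neighbours the 3 protein-coding genes on each side, and of each of the 12 gene lists at most the 3 of smallest p. Flt3, Gata1, Slamf1, Gp9, Elane, Igkc, Cd34, Cd48, Nkg7, Klrb1c, Lat, Lck, Cd3d, Cd3e, Cd3g, Trbc1, Trbc2, Tie1, Emcn, Robo4 and Car1 were named after their values were seen. The members and lists were chosen with earlier results of these data known.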

Additional observations from a re-analysis of the deposited data

Results flagged for a closer look

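A library that stood far from the others of its group was looked for in the 16 combinations of member and group with 4 libraries (WT LT-HSC and WT MPP3), by the gap to the nearest value over the range (Dixon's test at 95%, which chance passes in about 1 of 20). There were 3. Gimap6 in WT LT-HSC replicate 3 stood at 8448 normalized counts against 5044 to 5565 in the other 3. Gimap4 in WT MPP3 replicate 2 stood at 142 against 1.78 to 9.02. Both are libraries of the WT set numbered 52 to 54. Gimap9 in WT LT-HSC replicate 1 stood at 1017 against 1115 to 1133. The groups of 3 libraries, MPP2 among them, were not examined this way.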

How the results depend on the processing

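No analysis paired by animal was possible because the labels name no animals, and the replicate numbers used here follow the order of the samples. Some runs of consecutive label numbers, 52 to 54 among them, held all the populations in a single genotype and sex by transcripts. Whether such libraries share an animal is not known. The fits treated all libraries as independent. The number ranges of the labels entered as a covariate and in comparisons within a range. The main fit leaves them out. Of the single-gene values under the 12 settings other than leaving out 1 library, 1129 kept their direction and side of the threshold, 60 came past it, 23 dropped back and 36 turned their sign. The counts of members lower in MPP2 than in LT-HSC, lower in MPP3 than in LT-HSC and changed by genotype, each averaged, moved by at most 1.5 times under those settings. Within WT, the 1 call of MPP2 against LT-HSC became 0 with edgeR and without the filter, 2 with DESeq2, with a pseudocount of 16, with sex as a covariate, without the libraries numbered 52 to 54 and without the 2 doubted libraries (WT MPP2 replicate 3 and the library labelled WT LT-HSC replicate 4) or the 2 libraries low in MPP3 markers (WT MPP3 replicates 2 and 3), 3 with CPM scaling, and 4 with the number range as a covariate and without the 3 libraries with B cell transcripts. The settings that leave out doubted, B cell or marker-low libraries were chosen after seeing the data. Within KO, the 3 calls became 0 with edgeR, 5 with DESeq2 and with the number range, and 1 with voom, without the filter and without the B cell libraries. The 2 calls of MPP3 against LT-HSC in WT became 0 with edgeR and 1 with DESeq2, without libraries 52 to 54, without the doubted libraries and without the marker-low libraries. The 0 calls in KO became 1 with DESeq2, voom, a pseudocount of 16, CPM scaling, number range, sex and without libraries 52 to 54 or the marker-low libraries. MPP2 against MPP3 had 1 call in WT without the doubted or the B cell libraries. In KO it had 1 with DESeq2, a pseudocount of 16, CPM scaling and number range, and without libraries 52 to 54 or the doubted libraries, and 2 without the B cell libraries. Averaged, it had 0 with edgeR and without the marker-low libraries, and 5 without the doubted libraries. The cause was not tested in any of these.

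KO minus WT values that turned positive did so with the number range as a covariate for Gimap9 (0.05) and Gimap5 (0.05) in LT-HSC, Gimap5 in MPP2 (0.04), Gimap4 (0.72) and Gimap1 (0.08) in MPP3 and Gimap4 averaged (0.91). Without libraries 52 to 54 they were Gimap7 (0.15), Gimap1 (0.05) and Gimap5 (0.06) in MPP2, the same as without the doubted and without the B cell libraries, Gimap4 (0.22) and Gimap1 (0.10) in MPP3, and Gimap4 (0.50) and Gimap5 (0.01) averaged. Without the B cell libraries Gimap7 in LT-HSC (0.41) and Gimap1 in MPP3 (0.13) turned as well. Without the marker-low libraries Gimap6 (0.12), Gimap1 (0.49) and Gimap5 (0.35) in MPP3 and Gimap5 averaged (0.01) turned positive. Gimap9 in MPP3 against LT-HSC was -0.04 without libraries 52 to 54, and without the marker-low libraries it was -0.15 averaged and -0.08 in WT. In WT, Gimap7 in MPP2 against LT-HSC was 0.92 with edgeR and 0.94 with DESeq2, and Gimap4 in MPP2 against MPP3 was 0.15 with a pseudocount of 16, 0.13 with CPM scaling and 0.60 with the number range. Without the marker-low libraries it was 0.74, and Gimap5 was 0.30 in WT and 0.02 averaged.

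Leaving out each library in turn gave 5 to 7 calls for MPP2 against LT-HSC averaged, 0 to 4 in WT and 0 to 4 in KO. For MPP3 against LT-HSC it gave 2 to 3, 0 to 2 and 0 to 1, and for MPP2 against MPP3 0 to 5, 0 to 1 and 0 to 2. For the genotype it gave 0 to 1 averaged, 0 to 1 in MPP2 and 0 in LT-HSC and MPP3. Values that turned their sign in this way ranged as follows. KO minus WT in LT-HSC ranged from -0.14 to 0.03 for Gimap9 and -2.55 to 0.41 for Gimap7. KO minus WT in MPP2 ranged from -3.68 to 0.15 for Gimap7, -0.77 to 0.05 for Gimap1 and -0.56 to 0.11 for Gimap5. KO minus WT in MPP3 ranged from -2.38 to 0.33 for Gimap4 and -0.33 to 0.13 for Gimap1. MPP2 minus LT-HSC in WT ranged from -0.62 to 0.10 for Gimap9. MPP3 minus LT-HSC averaged over genotypes ranged from -0.04 to 0.12 for Gimap9. MPP2 minus MPP3 in WT ranged from -1.71 to 0.01 for Gimap8, -1.45 to 1.78 for Gimap4, -0.63 to 0.01 for Gimap5 and -1.0 to 0.45 for Gimap3. MPP2 minus MPP3 in KO ranged from -0.49 to 0.06 for Gimap5. MPP2 minus MPP3 averaged over genotypes ranged from -1.55 to 0.07 for Gimap4 and -0.50 to 0.22 for Gimap3.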
